A study of Mus musculus with 24 samples.

Results

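Transcripts of splicing factors and RNA helicases were followed in HBC-3 cells, a mouse hepatoblast line, over 7 days of differentiation on Matrigel, a basement membrane extract. The set was taken by gene name: every symbol that begins with Hnrnp, Srsf, Sf3a, Sf3b, Snrp, Prpf or U2af, or with Lsm, Ddx, Dhx or Rbm and a digit. It held 104 of the 8315 gene symbols on the array, on 176 features, and 89 of the 104 had values on at least 2 of the 3 arrays of each day and were tested. The tested genes were 19 DEAD-box helicases (Ddx), 5 DEAH-box and related helicases (Dhx), 17 RBM proteins (RNA-binding motif), 14 snRNP, Sm and LSm proteins, 13 hnRNP proteins, 10 PRPF proteins, 6 SF3A and SF3B subunits and 5 SR proteins. No feature given carried a U2af symbol. Membership rested on names, and testing also on the number of values. Levels did not enter the rule, but why cells are empty is not given, so the number of values may depend on level.

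The 8 groups were cells of day 0 and of days 1, 2, 3, 4, 5, 6 and 7 on Matrigel, with 3 arrays each, lettered A, B and C. In every group the cells came from 1 line that was freed of its STON+ feeder layer by trypsin and replating, and the RNA was amplified before labelling. On each array of 2 colours the sample carried Cy5, and undifferentiated HBC-3 RNA carried Cy3 as the common reference, so that the day 0 arrays compared undifferentiated cells with themselves. Levels are given as log2 of sample over reference with the array median at 0, and a difference of 1 on this scale is a 2-fold change. Base 2 and the sample as numerator are likely readings of the deposited log ratios and are not stated with them. Were the ratio the other way up, every rise below would be a fall.

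Splicing removes introns from pre-mRNA on the spliceosome, which is built from small nuclear RNAs packed in Sm or LSm protein rings (the snRNPs) and many further proteins. SF3A and SF3B belong to the U2 snRNP, PRPF proteins mostly to the complex of U4, U6 and U5, and SR and hnRNP proteins bind exons and introns and tune which splice sites are used. DEAD-box and DEAH-box helicases unwind RNA, and not only in splicing: several work in the nucleolus on ribosomal RNA, and others in mRNA export or decay. In liver, splicing regulators are known for the switch between fetal and adult isoforms, which arrays read as a single level per gene do not resolve.

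Each array held 12328 to 22149 values of 24157 features, and 71 of the 89 genes had a value on all 24 arrays. Day 0 arrays A and B correlated at 0.755 across features, but array A with array C at -0.343. The direction of the day 0 arrays was thus not settled, and results against day 0 are also given with the signs of all 3 turned. Turning all 3 leaves the correlations between them unchanged, and day 0 array C was also turned alone. The C arrays of days 4 to 7 stood apart from A and B. Their mean differed from that of A and B by more than 1 (log2) in 12 of the 89 genes, from -2.59 in Ddx18 to 1.70 in Dhx40, and in 1796 of 10621 units overall. Of the hepatoblast markers, Afp rose by 1.93, H19 by 3.34 and Igf2 by 1.8 at day 7, while Apob changed by -0.38 without passing the test, and the rest of that list of 15 was not tested. Fibroblast markers moved with the days as well: 3 of 11 tested rose at day 7 and 0 fell, with changes from -0.71 to the 6.06 of Dcn. The mean of the list ran from 0.09 to 0.65 on day 7 arrays and from -0.75 to 0.12 on day 0 arrays. With the day 0 signs turned 0 of the 11 rose and 2 fell. Against the reference channel, which leaves out the day 0 arrays, 3 rose and 2 fell. In days 5 to 7 against days 1 to 3, 1 rose and 3 fell. Of the other lists, 1 of 3 bile duct markers (Anxa4, 1.27), 1 of 2 blood cell markers (Tyrobp, 2.29) and 0 of 1 endothelial markers rose, and 0 fell. With the day 0 signs turned H19 (3.29) and Anxa4 (1.11) kept their calls, and Afp (0.78), Igf2 (1.21), Dcn (1.65) and Tyrobp (0.80) lost theirs. The part of these markers in the results below was not tested, and in bulk RNA fewer cells of a type cannot be told apart from less RNA per cell.

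**Figure D1:**
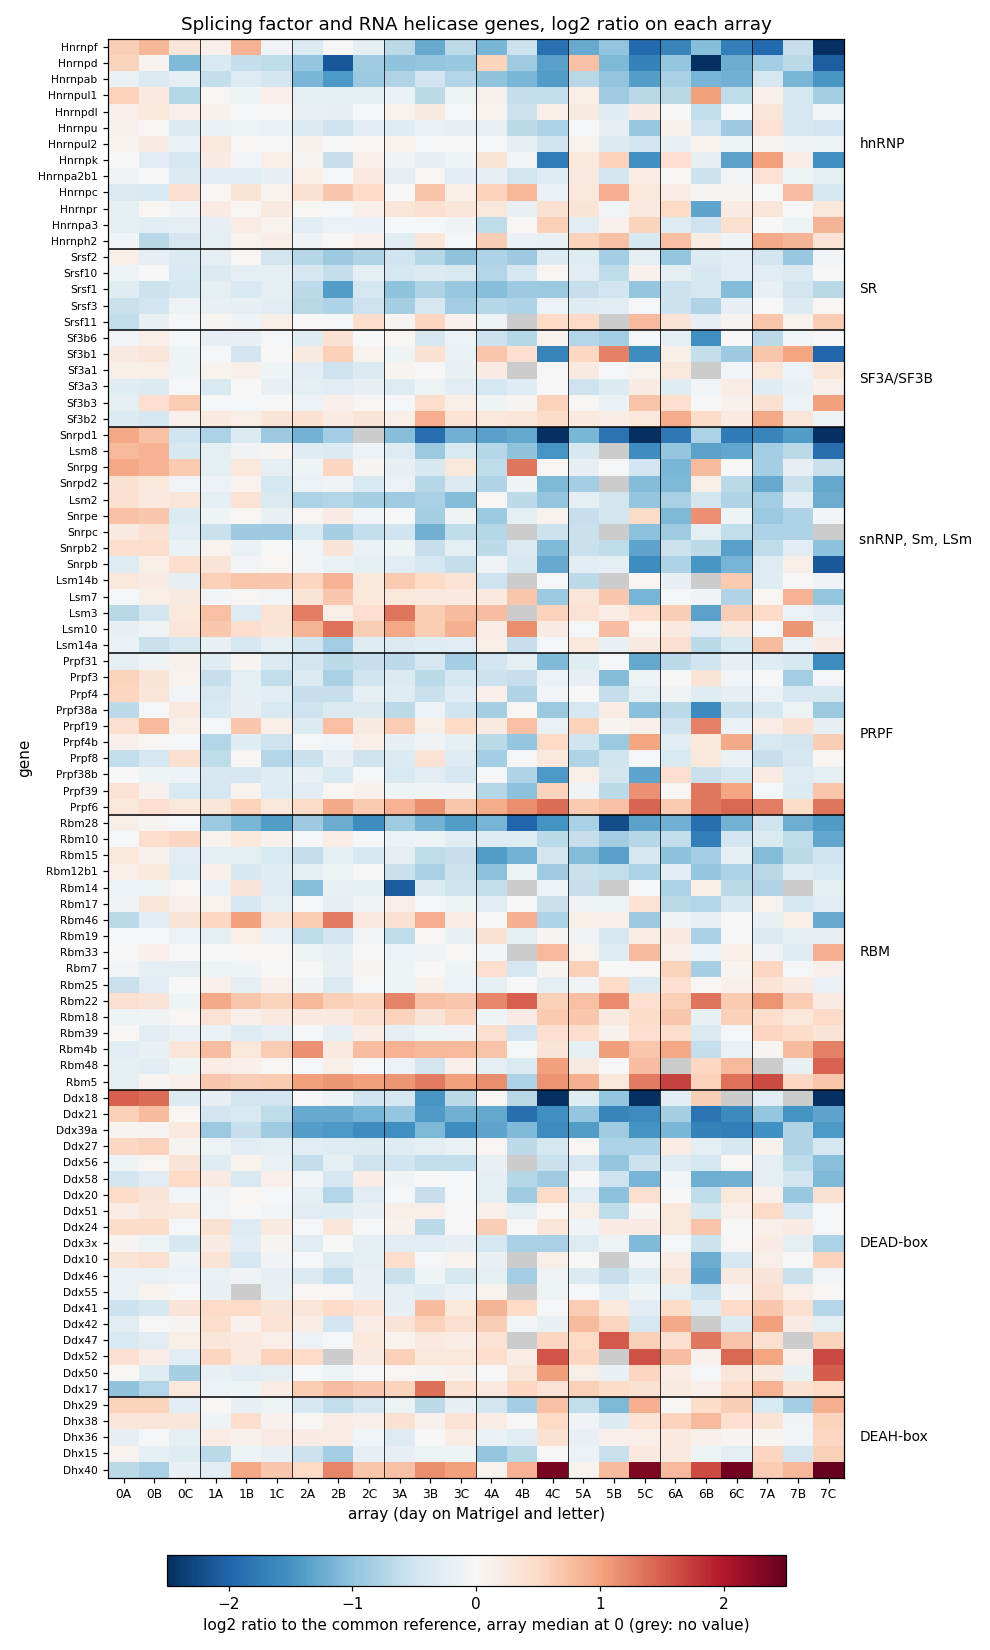
Log2 ratio of each of the 89 tested genes (rows, grouped by family) on each of the 24 arrays (columns, by day and letter), with blue below and red above the reference, grey for no value, and values beyond the colour bar drawn in its last colour. Ddx21, Ddx39a and Rbm28 are blue on every array of days 1 to 7, and the C arrays of days 4, 5 and 7 hold the deepest colours of Ddx18 and Snrpd1.

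Most genes of the set did not pass the test on any day, as was true of all units. Over all 7 comparisons with day 0, 32 of the 89 genes passed on at least 1 day, 22 of them lower and 10 higher, and 0 in both directions. That was 36% of the set against 41.4% of all units, with 24.7% against 21% lower and 11.2% against 20.4% higher. The remaining 57 passed on no day. Calls rest on limma with Benjamini-Hochberg adjustment over all 10639 units tested, of which 5660 were genes and 4979 unnamed features, at a threshold of 0.05. No label tells whether arrays of 1 day stem from different cultures, so the p-values cover array-to-array spread, which may be technical.

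At day 1, 0 genes rose and 4 fell, or 4.49% of the set against 10.9% of all units (4.99% of all units higher, 5.92% lower). At an unadjusted p under 0.05 in limma, 1 gene was higher and 9 were lower on that day. Day 2 had 1 rise and 7 falls, 8.99% against 17.1% (9.05% higher, 8.04% lower). Day 3 had 3 rises and 10 falls, 14.6% against 24.4% (12.2% higher, 12.3% lower). Day 4 had 4 rises and 12 falls, 18% against 22.2% (11.3% higher, 10.9% lower). The later days had the most calls. Day 5 had 3 rises and 18 falls, 23.6% against 22.9% (11.7% higher, 11.2% lower). Day 6 had 5 rises and 14 falls, 21.3% against 24.8% (12.2% higher, 12.6% lower). Day 7 had 4 rises and 16 falls, 22.5% against 27.6% (14.6% higher, 13% lower). The share called in the set was below that of all units on every day but day 5, where the shares were close. The split by direction at day 7 was 4.49% higher and 18% lower in the set, beside the 14.6% and 13% of all units just given, and the difference between the splits was not tested. The median change of the set was -0.10 at day 1, -0.21 at day 2, -0.11 at day 3, -0.27 at day 4, -0.19 at day 5, -0.12 at day 6 and -0.11 at day 7, where the median of all units stayed between -0.02 and 0.04.

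The split moved when each array was scaled to the same spread: day 1 then had 3 rises and 10 falls (30.6% of all units called), day 2 had 6 and 15 (34%), and day 5 had 6 and 16 (26.3%). With the signs of the day 0 arrays turned, 0 genes passed at day 1 in limma (10 at an unadjusted p under 0.05), where 4.84% of all units did, and 1 rose and 4 fell at day 7, where 11.6% of all units were called.

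**Figure D2:**
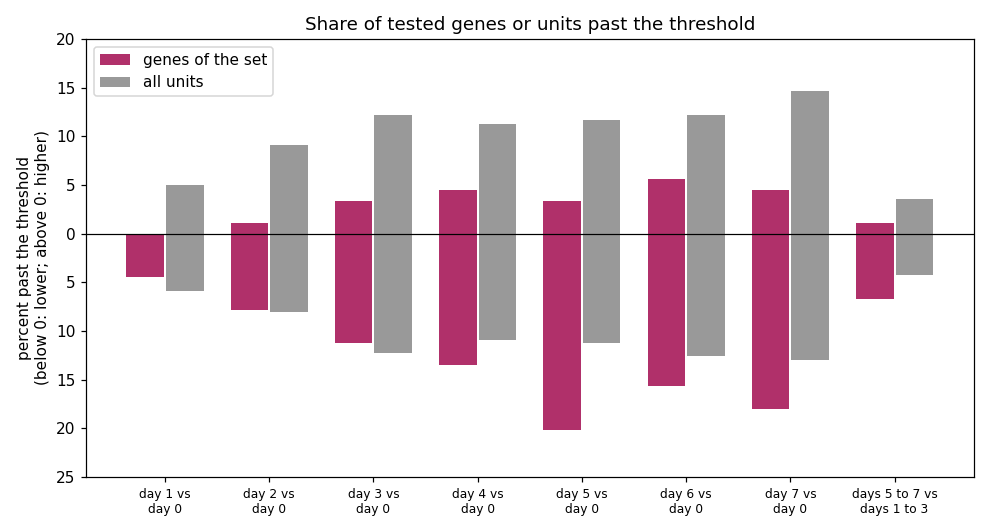
Percent of the 89 genes of the set (purple) and of all 10639 units (grey) past the threshold in each comparison, with higher values drawn above 0 and lower ones below. The purple bars above 0 stay under the grey ones in every comparison, while below 0 they reach 20.2% at day 5 against 11.2% of all units.

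Over the whole course, which takes the arrays of all days as separate samples, 11 of the 89 genes passed limma's moderated F-test, or 12.4%, against 16.3% of all units. Same-letter arrays deviated together within days 1 to 3 and within days 4 to 7, with values given below. Such deviations cancel between days of 1 period but not between periods, so these p-values may be too small or too large. With array letters as a block in the fit 15 genes passed (24.2% of all units). With separate blocks for days 0 to 3 and 4 to 7 it was 35 (46.7%). The 11 genes were the helicases Ddx21, Ddx39a and Ddx17, the RBM proteins Rbm10 and Rbm28, Hnrnpf and Hnrnpab, and Snrpd1, Snrpb2, Lsm2 and Lsm8 of the snRNPs. Of these, Ddx17 was called higher on single days and the other 10 lower. The lowest adjusted p values were 0.000211 for Ddx21, 0.000571 for Ddx39a and 0.00231 for Hnrnpf. The remaining 8 lay between 0.0126 and 0.0361. With the signs of the day 0 arrays turned, Ddx21, Ddx39a, Hnrnpf, Hnrnpab and Rbm28 kept their place, and the other 6 lost it. Ddx21, Ddx39a and Hnrnpf stayed past the threshold whichever of the 24 arrays was left out, and so did Rbm10. Lsm8, Snrpb2 and Snrpd1 lost their F-test call without day 0 array A (F of 3.96, 3.82 and 3.59) or B (3.95, 3.78 and 3.70), and Rbm28 without day 0 array A (3.21), B (3.33) or C (3.65). Lsm2 lost it without day 0 array A (3.41), B (3.67) or C (3.63) or day 3 array C (4.03). Ddx17 lost it without day 0 array A or B (3.02 each), day 1 array A (3.94) or B (3.96) or day 2 array B (3.97) or C (4.0). Hnrnpab lost it without 11 of the 24 arrays, every array of days 0 and 1 and arrays A and B of day 2, A and C of day 3 and C of day 4, with F between 3.27 and 3.99.

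Ddx21, Ddx39a and Rbm28 fell on all 7 days, and they were the only genes of the set that did. Ddx21 is a nucleolar helicase that acts in transcription and processing of ribosomal RNA. It read -0.97, -1.50 and -1.31 on the day 7 arrays, against 0.60, 0.80 and 0.05 on those of day 0. Every day 7 value lay below every day 0 value, and the change was -1.74 ± 0.27 (SE, limma adjusted p = 0.000126). The mean level was 0.48 at day 0, -0.49 at day 1 and -1.23 at day 2, and from day 2 on it stayed between -1.56 and -1.19. Its 3 features changed by -2.0 to -1.47 at day 7, all downward.

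Ddx39a, a close relative of the export helicase UAP56 (Ddx39b), stood at -1.51, -0.76 and -1.44 on day 7, against 0.06, 0.07 and 0.25 on day 0. All 3 day 7 arrays were lower, with array B the highest of them, and the change was -1.37 ± 0.24 (adjusted p = 0.000357). Rbm28, a nucleolar RNA-binding protein whose yeast relative Nop4 serves ribosome assembly, measured -0.49, -1.22 and -1.42 on day 7, against 0.14, 0.07 and -0.05 on day 0. The groups did not overlap, with array A the least reduced, and the change was -1.10 ± 0.32 (adjusted p = 0.0163). Its mean level was lowest at day 4, at -1.55, and stood at -1.04 at day 7.

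These genes were low from the first day on Matrigel. On the day 1 arrays Ddx21 read -0.47, -0.38 and -0.63, Ddx39a -0.93, -0.58 and -0.90, and Rbm28 -0.92, -1.14 and -1.39, each below its 3 day 0 values given above. Day 1 changes were -0.97 ± 0.27 for Ddx21 (adjusted p = 0.0239), -0.93 ± 0.24 for Ddx39a (0.0157) and -1.20 ± 0.32 for Rbm28 (0.0209). The fourth gene of day 1 was Snrpc, the U1-C protein of the U1 snRNP, at -0.56, -0.91 and -0.91 on day 1 against 0.23, 0.39 and -0.27 on day 0, a change of -0.91 ± 0.25 (0.0262). All 4 of these day 1 calls were lost when day 0 array A, day 0 array B or day 1 array C was left out. Leaving these out in that order gave -0.91, -0.81 and -0.91 for Ddx21, -0.96, -0.96 and -0.88 for Ddx39a, -1.16, -1.20 and -1.08 for Rbm28, and -0.85, -0.77 and -0.85 for Snrpc. Calls were also lost without day 1 array A for Ddx21 (-0.98) and Ddx39a (-0.87), and without day 1 array B for Ddx21 (-1.03), Rbm28 (-1.21) and Snrpc (-0.85). With the day 0 signs turned, the 4 calls were lost at -0.01 for Ddx21, -0.67 for Ddx39a, -1.09 for Rbm28 and -0.68 for Snrpc. Against the reference channel Ddx21 lost its day 1 call (-0.49), and the other 3 kept theirs.

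**Figure D3:**
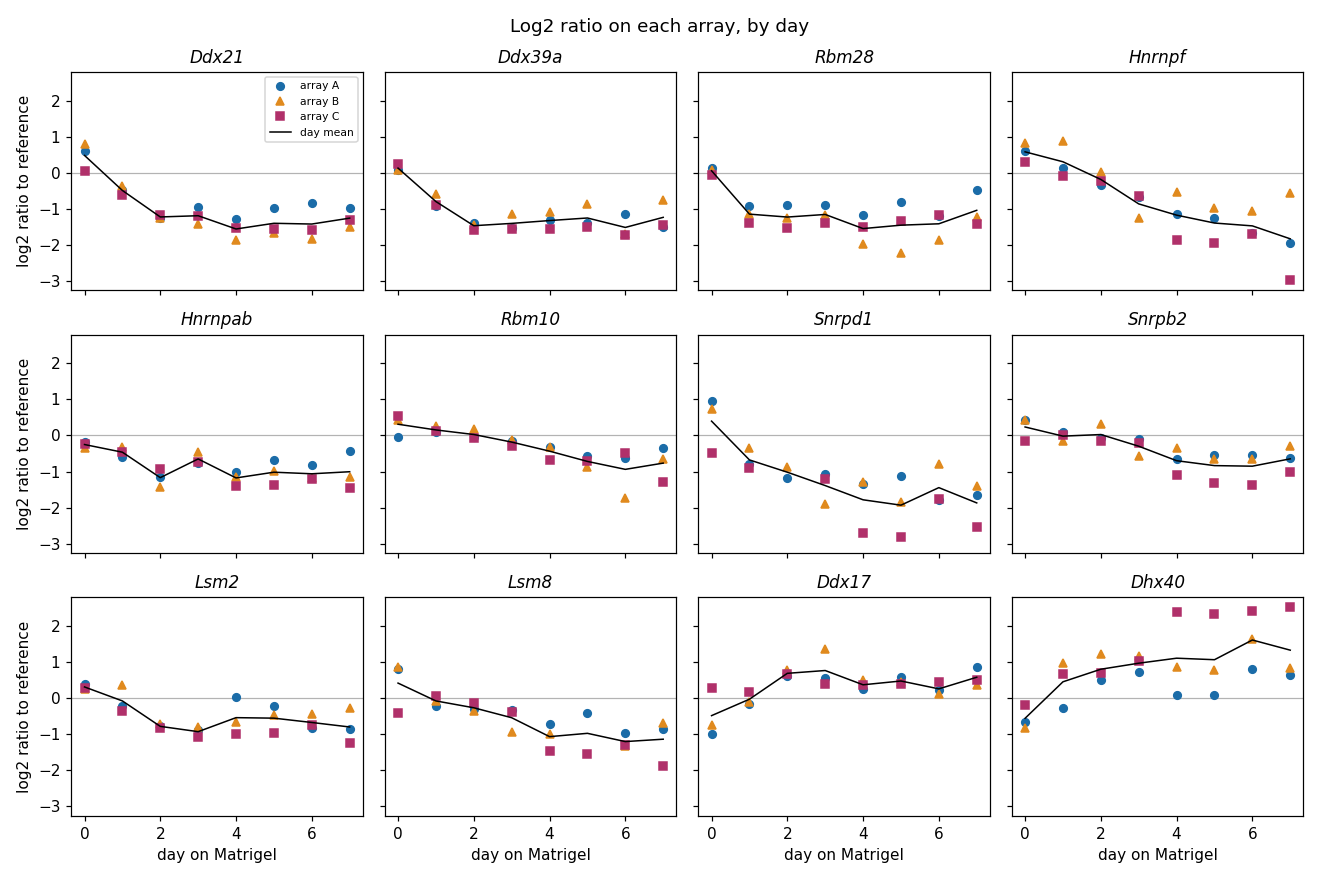
Log2 ratio to the common reference (vertical axis) by day on Matrigel (horizontal axis) for 12 genes of the set, with a mark for each array (A, B, C) and a line through the day means. Ddx21, Ddx39a and Rbm28 are low from day 1 on, Hnrnpf, Rbm10, Snrpb2 and Lsm8 lie lower on days 5 to 7 than on days 1 to 3, and Dhx40 has its C arrays far above A on days 4 to 7.

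Promoters of members that moved in different ways are printed to set genes that fell from day 1 (Ddx21, Rbm28) beside genes that fell late (Rbm10, Snrpb2) and a gene that rose (Ddx17). The 5 genes are examples picked with their values known. Each is the 250 bases before a transcription start in RefSeq's annotation of GRCm38.p6, printed 5′ to 3′ on the gene's strand. For Rbm10 and Ddx17 the start used lies inside the gene's annotated span, so the window overlaps the gene. That span begins at base 20617357 for Rbm10 and ends at base 79546764 for Ddx17. The windows are chr10:62602299-62602548 on the minus strand for Ddx21, chr6:29164725-29164974 on the minus strand for Rbm28, chrX:20617253-20617502 on the plus strand for Rbm10, chr2:143062819-143063068 on the plus strand for Snrpb2 and chr15:79546742-79546991 on the minus strand for Ddx17. Capitals mark CCGGAAG, a string that ETS factors bind, on either strand. CACGTG, the E-box that MYC and other factors bind, would be in capitals as well. Shorter or variant ETS sites were not searched for and stay in small letters.
Ddx21: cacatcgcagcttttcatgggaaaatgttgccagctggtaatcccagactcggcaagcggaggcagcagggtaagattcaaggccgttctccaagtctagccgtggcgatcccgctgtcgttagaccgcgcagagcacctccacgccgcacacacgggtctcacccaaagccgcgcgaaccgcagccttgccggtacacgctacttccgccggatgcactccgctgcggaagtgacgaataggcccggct
Rbm28: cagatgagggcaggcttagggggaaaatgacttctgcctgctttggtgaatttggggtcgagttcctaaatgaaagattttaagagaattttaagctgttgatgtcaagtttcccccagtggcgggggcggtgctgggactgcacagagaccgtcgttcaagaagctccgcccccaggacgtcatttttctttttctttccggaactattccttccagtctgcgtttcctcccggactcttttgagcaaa
Rbm10: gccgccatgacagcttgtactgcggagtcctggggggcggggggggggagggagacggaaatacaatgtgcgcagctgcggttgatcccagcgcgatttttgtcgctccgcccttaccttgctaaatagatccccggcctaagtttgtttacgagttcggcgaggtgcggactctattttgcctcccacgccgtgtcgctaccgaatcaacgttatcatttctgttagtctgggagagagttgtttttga
Snrpb2: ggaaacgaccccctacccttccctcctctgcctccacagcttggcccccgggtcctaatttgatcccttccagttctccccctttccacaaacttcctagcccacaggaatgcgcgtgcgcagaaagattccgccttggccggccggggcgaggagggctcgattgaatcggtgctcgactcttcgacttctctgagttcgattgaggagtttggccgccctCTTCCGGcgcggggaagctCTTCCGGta
Ddx17: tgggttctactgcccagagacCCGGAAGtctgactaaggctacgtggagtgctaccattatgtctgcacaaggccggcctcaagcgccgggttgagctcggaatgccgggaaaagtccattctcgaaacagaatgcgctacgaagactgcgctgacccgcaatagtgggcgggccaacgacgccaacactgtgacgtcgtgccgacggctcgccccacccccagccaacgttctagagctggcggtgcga
Snrpb2 held CCGGAAG in 2 places on the opposite strand, at bases 28 to 22 and 9 to 3 before the start, and Ddx17 held it once, at bases 229 to 223. The letters CACGTG were in 0 of the 5 windows. Of the 97 windows found for 82 of the 89 tested genes, 23.7% held CCGGAAG, against 14.4% of the 5942 windows of all tested genes and 6.9% of all 32851 windows of the table. CACGTG was in 9.3% of the set's windows, 9.0% of those of tested genes and 6.0% of all windows. CCAAT was in 47.4% of the set's windows, 35.0% of those of tested genes and 33.8% of all, and the GC box GGGCGG in 55.7%, 60.6% and 32.7%. Both strands were searched, 13 genes had more than 1 window, and letters in a window are not binding.

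Among the families, the snRNP, Sm and LSm proteins held the most calls at day 7: 7 of 14 fell and 0 rose (8 and 1 at an unadjusted p under 0.05 in limma), with a median change of -0.89, where the median of all units was -0.01. In this family 5 of 14 genes passed on no day, against 10 of 13 hnRNP proteins, 12 of 19 DEAD-box helicases and 10 of 17 RBM proteins. Of all units, 41.4% passed on at least 1 day. The share of all units called at day 7 was 27.6% (14.6% higher, 13% lower). It stands beside each family count at day 7 here and below, and no family was tested against it. The 7 genes that fell cover several particles. Snrpd1, Snrpd2 and Snrpg form part of the Sm ring, Snrpc belongs to U1 and Snrpb2 to U2, and Lsm2 and Lsm8 sit in the ring on U6.

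Snrpd1 read -1.66, -1.40 and -2.55 on day 7, against 0.96, 0.73 and -0.50 on day 0. The groups did not overlap, though day 0 array C stood far below its companions, and the change was -2.27 ± 0.47 (adjusted p = 0.00185). Lsm8, the subunit that sets the nuclear LSm ring apart from the cytoplasmic ring, measured -0.85, -0.68 and -1.89 on day 7, against 0.80, 0.86 and -0.40 on day 0, a change of -1.56 ± 0.36 (0.00395). Here too array C was the lowest in both groups, and the groups stayed apart. Lsm2, its neighbour in the ring, was at -0.87, -0.28 and -1.25 on day 7, against 0.40, 0.25 and 0.30 on day 0. All day 7 arrays were below those of day 0, the change was -1.11 ± 0.28 (0.0059), and Lsm2 was called on each of days 2 to 7.

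Snrpd2 stood at -1.25, -0.56 and -1.28 on day 7, against 0.39, 0.26 and -0.07 on day 0, and changed by -1.22 ± 0.31 (0.00706) without overlap. Snrpg gave -0.84, -0.21 and -0.55 on day 7, against 0.97, 0.88 and 0.66 on day 0, a change of -1.37 ± 0.42 (0.0208). Its day 0 arrays, which compare undifferentiated cells with themselves, were thus well above 0. Against the reference channel Snrpg read -0.53 at day 7 and was not called, and with day 0 array C turned its change of -0.93 was not called. Apart from day 4 array B (1.34) and day 6 array B (0.80), no later array reached its day 0 values. Snrpb2 changed by -0.88 ± 0.28 (0.0236), with -0.64, -0.29 and -1.02 on day 7 against 0.44, 0.43 and -0.17 on day 0, also without overlap. Snrpc had 2 values on day 7, -0.78 and -0.77 on arrays A and B, both below its day 0 values, a change of -0.89 ± 0.28 (0.0251).

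The other 7 genes of the family did not pass at day 7, and 4 of those 7 were negative. Snrpe (-0.95) and Snrpb (-0.85), also Sm proteins, were as low as Snrpb2 and Snrpc but had larger standard errors (0.44 each), and both were chosen for mention after their values were seen. Lsm7, likewise of the LSm ring, had the smallest change of the family, -0.14 ± 0.44, and its 2 features disagreed, at -1.49 and 1.20. With the C arrays of days 4 to 7 left out, the family had 7 falls of 14, with a median of -0.79. With the day 0 signs turned it was 1 fall of 14, with a median of -0.34. Against the reference channel, which leaves out the day 0 arrays, 6 of 14 fell at day 7 and the median level was -0.62.

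Several of these calls hung on single arrays. Without day 0 array A or B, the day 7 calls of Snrpb2 (-0.78 and -0.79), Snrpc (-0.83 and -0.75) and Snrpg (-1.30 and -1.35) were lost. Leaving out day 7 array A ended the same calls at -0.89, -0.88 and -1.22. Leaving out array B of that day ended the call of Snrpc (-0.90), and array C those of Snrpb2 (-0.70) and Snrpg (-1.36).

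**Figure D4:**
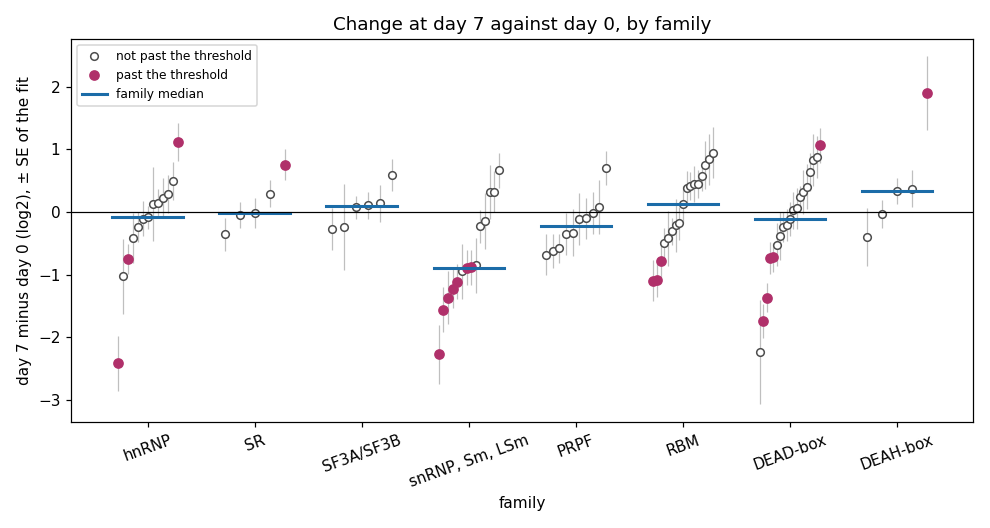
Change at day 7 against day 0 (log2, vertical axis) of each tested gene, grouped by family, with a filled mark for genes past the threshold, the standard error of the fit as a grey line and the family median as a blue bar. The snRNP, Sm and LSm proteins have their median at -0.89 with 7 filled marks below 0, and the medians of the other families lie between -0.22 and 0.33.

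hnRNP proteins coat nascent transcripts, and here 1 of 13 rose and 2 fell at day 7, with a family median of -0.09. Hnrnpf had the largest fall of the whole set. Its level was -1.94, -0.58 and -2.99 on day 7, against 0.61, 0.82 and 0.31 on day 0. The groups were apart, although the day 7 arrays differed widely among themselves, and the change was -2.41 ± 0.44 (adjusted p = 0.000587). Its mean level was 0.58 on day 0, 0.30 on day 1, -0.19 on day 2, -0.86 on day 3, -1.18 on day 4, -1.40 on day 5, -1.48 on day 6 and -1.83 on day 7, lower each day than the day before. That held for the means only. The B arrays were lowest on day 3 (-1.26) and read -0.54, -0.98, -1.06 and -0.58 on days 4 to 7.

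Hnrnph2, which like Hnrnpf binds runs of guanines, went the other way. It read 0.95, 0.86 and 0.37 on day 7, against -0.07, -0.69 and -0.42 on day 0. Each day 7 array was above each day 0 array, and the change was 1.11 ± 0.30 (0.00992). It passed on day 7 alone of the 7 days, and the call was lost without day 0 array B (0.97). Hnrnpab, which binds nuclear RNA and DNA, changed by -0.76 ± 0.24 (0.0249), with -0.42, -1.15 and -1.45 on day 7 against -0.17, -0.36 and -0.23 on day 0, so that day 7 array A lay close to the day 0 arrays. That call was lost without day 0 array A (-0.72), day 0 array B (-0.81), day 7 array B (-0.68) or day 7 array C (-0.53), yet with the day 0 signs turned it stood, at -1.26. The smallest change in the family was that of Hnrnpul2, -0.09 ± 0.19, and its 2 features compared went apart, at -1.09 and 0.92.

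DEAD-box helicases gave 1 rise and 4 falls among 19 at day 7, with a median of -0.11. Beside Ddx21 and Ddx39a, the falls were Ddx27 (-0.73, 0.04) and Ddx56 (-0.72, 0.0248), helicases known for work on the large ribosomal subunit. Both were named after their values were seen. The call of Ddx27 was lost without day 0 array A (-0.66), day 0 array B (-0.63), day 7 array B (-0.53) or day 7 array C (-0.70), and that of Ddx56 without day 0 array B (-0.74), day 0 array C (-0.61) or day 7 array C (-0.52).

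Ddx18, the counterpart of the yeast nucleolar helicase Has1, had the largest change of its family at day 7, -2.24 ± 0.83, and did not pass (adjusted p = 0.0521). It read -0.27 and -2.5 on day 7 arrays A and C, against 1.48, 1.40 and -0.34 on day 0, so the groups overlapped. It was called at day 5 alone (-2.36, 0.0289), and that call was lost without day 0 array A (-2.04), day 0 array B (-2.08) or day 5 array C (-1.49) and with the day 0 signs turned (-0.66). Ddx10 was nearest to no change, at 0.03 ± 0.30.

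Ddx17, a coregulator of transcription and splicing, was the gene of the set called higher on most days, 5 of the 7. It read 0.88, 0.38 and 0.49 on day 7, against -1.0, -0.74 and 0.29 on day 0. All day 7 arrays were above those of day 0, but day 0 array C was close to them, and the change was 1.07 ± 0.28 (0.00836). Days 2 and 3 gave the highest mean levels, 0.69 and 0.77. The day 7 call was lost without day 0 array A (0.81) and with the day 0 signs turned (0.10).

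Ddx50, the paralogue of Ddx21 that lies next to it on chromosome 10, passed on no day. Its arrays measured 0.23, -0.18 and 1.51 on day 7, against 0.06, -0.31 and -0.83 on day 0, with overlap between the groups. The change of 0.88 ± 0.33 did not pass (0.0546), and the gene was named after its values were seen. The difference between the paralogues was not tested.

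Of the 5 DEAH-box and related helicases, Dhx40 rose and 0 fell at day 7. Its arrays gave 0.64, 0.84 and 2.52 on day 7, against -0.67, -0.81 and -0.19 on day 0. The groups did not overlap, and array C carried the top value in both. The change was 1.89 ± 0.59 (0.0223), and its 2 features were alike, at 1.87 and 2.00. Without day 7 array C it was 1.30 and no longer called, as also without day 0 array A (1.84) or B (1.76). It was 1.30 and called (0.0139) when all C arrays of days 4 to 7 were left out. Dhx38, which drives the second catalytic step of splicing, had a change of -0.04 ± 0.22, with 0.35, -0.10 and 0.55 on day 7 against 0.30, 0.29 and 0.31 on day 0.

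RBM proteins gave 0 rises and 3 falls among 17, with a median of 0.12 (2 higher and 3 lower at an unadjusted p under 0.05 in limma). Besides Rbm28 these were Rbm10, a regulator of exon inclusion, and Rbm15, which helps to place methyl marks on RNA. Rbm10 stood at -0.36, -0.64 and -1.30 on day 7, against -0.05, 0.44 and 0.54 on day 0, and changed by -1.08 ± 0.28 (0.00787). The groups did not overlap, with array A the nearest to the other group on each side. Rbm15 changed by -0.79 ± 0.28 (0.0414) and was named after its values were seen. Left-out arrays ended the call of Rbm10 (day 7 array C, -0.81), of Rbm28 (day 0 array A, -1.05, day 0 array B, -1.09, and day 7 array C, -0.91) and of Rbm15 (day 0 arrays A and B, -0.67 and -0.75, and day 7 arrays A and B, -0.62 and -0.83). Rbm33 had the smallest change of the family, 0.12 ± 0.29.

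The PRPF proteins and the SF3A and SF3B subunits gave no calls at day 7. Of 10 PRPF proteins 0 passed in limma, from -0.68 to 0.70, and 8 of them were negative. At an unadjusted p under 0.05, 1 of the 10 was higher and 3 were lower. The highest was Prpf6, the bridge between U5 and the pair of U4 and U6, at 0.70 ± 0.27 (0.0563), with 1.28, 0.45 and 1.34 on day 7 against 0.26, 0.42 and 0.28 on day 0. It passed on days 4 and 6. The smallest change was that of Prpf38b, -0.02. Of 6 SF3A and SF3B subunits 0 passed, from -0.27 to the 0.59 of Sf3b2 (0.0821), and Sf3a1 was nearest to 0, at 0.07. At an unadjusted p under 0.05, 1 of the 6 was higher and 0 were lower.

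SR proteins, which bind exonic enhancers, had 1 rise and 0 falls among 5. Srsf11 read 0.68, 0.09 and 0.64 on day 7, against -0.61, -0.18 and -0.04 on day 0. The groups stayed apart, with day 7 array B the nearest to day 0, and the change was 0.75 ± 0.25 (0.0308). The call was lost without day 0 array A (0.58), day 0 array B (0.80), day 7 array A (0.64) or day 7 array C (0.67). Srsf1, the founding member of the family, changed by -0.02 ± 0.24, with -0.20, -0.46 and -0.68 on day 7 against -0.30, -0.53 and -0.44 on day 0.

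Of the 20 day 7 calls in all, Ddx39a (-1.11), Hnrnpab (-1.26) and Snrpd1 (-1.47) stood with the signs of all day 0 arrays turned. Among the other 17, Ddx27 and Snrpg changed sign and 15 were lost. Of these, the rises became 0.10 for Ddx17, 0.19 for Srsf11, 0.33 for Hnrnph2 and 0.78 for Dhx40. The falls became -0.41 for Snrpb2, -0.45 for Rbm10, -0.49 for Lsm2, -0.54 for Ddx56, -0.66 for Snrpc, -0.71 for Rbm15, -0.72 for Lsm8, -0.78 for Ddx21, -0.84 for Snrpd2, -0.99 for Rbm28 and -1.25 for Hnrnpf. Against the reference channel itself 18 of the 20 stood, among them Ddx21 (-1.26, 4.11e-05) and Hnrnpf (-1.83, 0.000155). Ddx27 (-0.35) and Snrpg (-0.53) lost their calls there. When the C arrays of days 4 to 7 were dropped, 15 of the 20 stood, with Snrpd1 at -1.93 and Hnrnpf at -1.84. Turning day 0 array C alone also kept 15 of the 20. Ddx27 (-0.69), Ddx56 (-0.51), Hnrnph2 (0.83), Rbm10 (-0.72) and Snrpg (-0.93) lost their calls in that setting.

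Days 5 to 7 were set against days 1 to 3 in a contrast that uses no day 0 array, which asks which members moved within the time on Matrigel. In it 1 gene of the set rose and 6 fell, 7.87% of 89 against 7.74% of all units, with rises in 1.12% against 3.51% and falls in 6.74% against 4.23%. The count thus lay at the level of all units, and the median difference of the set was 0.01. Same-letter arrays deviated together within days 1 to 3 (r of 0.194 to 0.441 over 9 pairs) and within days 4 to 7 (0.142 to 0.912 over 18 pairs), so the 9 arrays of a period are not 9 separate samples and these p-values may be too small. With each letter averaged over its period, a setting chosen after seeing the data, 3 late against 3 early means, limma called 0 genes of the set and 0% of all units (9 genes of the set at an unadjusted p under 0.05). The 7 genes kept their direction there, at -1.32 for Hnrnpf, -0.86 for Rbm46, -0.81 for Rbm10, -0.79 for Lsm8, -0.68 for Snrpb2, -0.61 for Lsm14b and 0.64 for Ddx47, with adjusted p between 0.355 and 0.426. The values that follow are those of the fit of single arrays. Hnrnpf fell most, with a difference of -1.32 (adjusted p = 0.00553). Its 9 late arrays ran from -2.99 over a median of -1.66 to -0.58, and its 9 early arrays from -1.26 over -0.24 to 0.87, so the ranges overlapped.

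Rbm10 had late values of -1.73 to -0.36 with a median of -0.64, and early values of -0.28 to 0.26 with a median of -0.05. The groups of 9 arrays did not overlap, and the difference was -0.81 (0.0064). How many of all units lacked overlap was not counted, here or in the other comparisons. Snrpb2 lay between -1.37 and -0.29 late (median -0.64) and between -0.58 and 0.31 early (median -0.10), a difference of -0.68 (0.0164) with overlapping ranges. Hnrnpf, Rbm10 and Snrpb2 kept their calls in that fit whichever of the 18 arrays was left out.

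Lsm8 differed by -0.81 between the periods (0.029), with late values from -1.89 to -0.40 (median -1.14, 8 arrays) and early ones from -0.93 to 0.08 (median -0.31). Lsm14b, related to a protein of cytoplasmic mRNA granules, had -0.66 to 0.65 late (median -0.08, 7 arrays) and 0.26 to 0.87 early (median 0.59), a difference of -0.64 (0.0242). Both pairs of ranges overlapped. Rbm46, known from mouse germ cells, ran from -1.25 to 0.16 late (median -0.09) and from 0.19 to 1.31 early (median 0.51), without overlap, and differed by -0.86 (0.0371). Ddx47, the counterpart of a yeast helicase of ribosomal RNA processing, was the gene called higher, by 0.57 (0.0383), with 0.39 to 1.54 late (median 0.58, 8 arrays) and -0.14 to 0.30 early (median 0.19), also without overlap.

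With the C arrays of days 4 to 7 left out, Hnrnpf, Rbm10, Snrpb2 and Lsm14b kept this call, and Lsm8 (-0.48), Rbm46 (-0.62) and Ddx47 (0.61) lost it. Scaling the arrays ended the calls of Lsm8 (-0.54) and Ddx47 (0.40), with 0 genes higher and 6 lower in the set. Single arrays mattered for the same genes and for Lsm14b, which lost its call without day 2 array B (-0.59), day 3 array A (-0.62), day 5 array A (-0.52) or day 6 array A (-0.50). Lsm8 lost it without array C of day 1 (-0.79), 2 (-0.79), 3 (-0.78), 5 (-0.62) or 7 (-0.69), or array A of day 3 (-0.77). Rbm46 lost it without array A of day 1, 2 or 3 (-0.88 each), array B of day 1 (-0.79), 2 (-0.76) or 3 (-0.79), or array C of day 5 (-0.74) or 7 (-0.72). Ddx47 lost it without 10 of the 18 arrays, the 3 of day 1 and arrays A and B of day 2, A and C of day 3, B of day 6 and A and C of day 7, with values between 0.49 and 0.60.

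**Figure D5:**
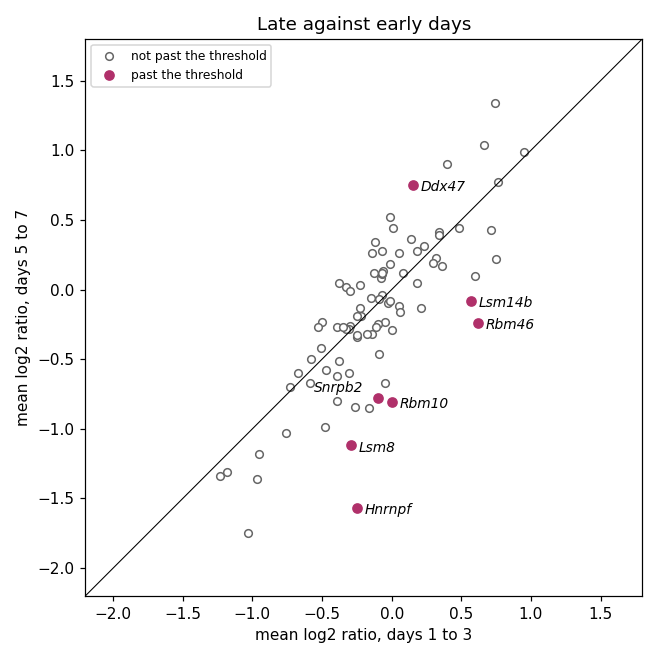
Mean log2 ratio of days 5 to 7 (vertical axis) against that of days 1 to 3 (horizontal axis) for the 89 genes, with filled marks for genes past the threshold in the fit of single arrays and a line where the means are equal. Hnrnpf, Lsm8, Rbm10, Snrpb2, Lsm14b and Rbm46 lie below the line and Ddx47 above it.

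Genes that work with the set but are outside its name rule moved in both directions at day 7. Of 20 other spliceosome proteins tested, 2 rose and 4 fell: Crnkl1 (1.43) and Slu7 (0.92) rose, and Son (-1.59), a protein of nuclear speckles, and Sap18 (-1.47) were the largest falls. With the day 0 signs turned, 0 of the 20 passed in limma, and these read 0.77, 0.66, -0.52 and -0.94. Single arrays ended the calls of Son (-1.38, -1.42 and -1.34 without day 0 array A, day 0 array B or day 7 array A) and of Slu7 (0.79 to 0.99 without any array of day 0 or array A or B of day 7). Of 12 kinases and snRNP assembly factors, 3 rose and 2 fell. The kinases Clk1 (1.76), Srpk2 (1.12) and Clk2 (0.79), which phosphorylate SR proteins, were the rises, and read 0.76, 0.42 and 0.49 with the day 0 signs turned, without passing. Srpk1, a kinase of the same kind, was called lower, so these kinases did not all move 1 way. Its call was lost without day 0 array A (-0.66), day 0 array B (-0.70) or day 7 array C (-0.53). Srpk1 was named after its values were seen. The call of Srpk2 was lost without any array of day 0 or array B or C of day 7 (0.84 to 1.23), and that of Clk2 without day 0 array A or B or any array of day 7 (0.66 to 0.81). Gemin6, part of the SMN complex that loads Sm rings onto RNA, was at -1.45, -1.18 and -1.79 on day 7, against 0.26, 0.77 and 0.06 on day 0, a change of -1.83 ± 0.27 (adjusted p = 8.55e-05) with no overlap. It still passed with the day 0 signs turned, at -1.11 (0.0108).

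Of 6 exon junction, decay and export factors 0 rose and 2 fell, the export factors Alyref (-1.57, 0.0155) and Nxt1 (-1.34, 0.000628). Both were lost with the day 0 signs turned (-1.24 and -0.61), and Alyref without day 0 array C (-1.36) or day 7 array C (-0.97). Of 21 other RNA-binding splicing regulators, Tia1 rose (0.84) and Mbnl3 fell (-1.38). With the day 0 signs turned Mbnl3 passed, at -1.51, and Tia1 did not, at 0.26. Leaving out day 0 array B ended the call of Tia1 (0.72), and day 7 array C that of Mbnl3 (-1.06). At day 7, 27.6% of all units were called, and the counts of these lists were not set against it by a test.

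Features of the same gene did not always point the same way, and the probe sequences, and so any cross-hybridisation between close relatives, were not analysed here. Of 36 tested genes with at least 2 features that could be compared, 18 had features of opposite sign at day 7, and the median gap between the highest and the lowest was 0.53 (log2). The 3 genes among them that were called at day 7, Ddx21, Dhx40 and Snrpb2, had features of the same sign. Features were averaged before the test, so features of opposite sign pull a gene towards no change and away from a call. Agreement among called genes is thus partly built in and cannot show that their features are reliable. The rest of the genes called at day 7, among them Hnrnpf, Snrpd1, Lsm8, Lsm2, Ddx39a and Rbm28, had too few features to be checked in this way. Rbm4b gave the widest gap, from -0.72 to 2.48, and Rbm39 ran from -0.88 to 1.32, both picked after their values were seen.

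The 15 genes that were not tested had 3 to 22 values each. Among them were 3 with values on all 3 arrays of day 7 and of day 0. Ddx4, a helicase of germ cells, averaged -1.85 on day 7 against 0.47 on day 0, Rbm6 averaged 0.61 against -0.25, and Rbm27 -0.15 against -0.24. The others were Ddx1, Ddx31, Ddx60, Hnrnpll, Lsm11, Rbm15b, Rbm24, Rbm41, Rbm42, Rbm43, Sf3b4 and Sf3b5.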

How the data were processed

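The deposited table held log ratios of 24 arrays, read here as log2 of Cy5 (sample) over Cy3 (undifferentiated HBC-3 reference), with the dyes per the labels' protocols. How the authors normalized them, which base and numerator they used and why cells are empty is not given in the sources used here. Column medians as deposited lay between -0.0253 and 0.0295. Gene symbols came from the platform annotation, which gave 13319 features 1 symbol, and 13290 of these were brought up to date by Entrez identifier (GRCm38.p6). Each array was centred on its median, and features of a gene were averaged. The 8 day means were fitted to all 24 arrays with limma 3.58.1 in R 4.3.3, 2-sided, with Benjamini-Hochberg adjustment over 10639 units that had at least 2 values on each day. The number of arrays, 3 a day, limits the precision: standard errors against day 0 had medians of 0.29 to 0.30 in the set. The fit was tested on simulated data with independent noise on each array. Shared deviations of same-letter arrays were left out there, so that test cannot show their effect on the p-values.

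Genes named were those past the F-test or called on at least 5 days, the 8 largest rises and falls past the threshold at day 1, at day 7 and between periods, the largest and smallest change at day 7 of each family, and up to 4 genes of each further list. The set, the lists and the rule were chosen with earlier results of these data known. Array letters were checked for pairing: deviations of same-letter arrays correlated at -0.544 to 0.46 between day 0 and later days and at -0.3 to 0.287 between the periods compared, so letters were not taken as pairs, though at 0.194 to 0.441 within days 1 to 3 and 0.142 to 0.912 within days 4 to 7. For that reason letter means of each period were added as an alternative after seeing the data. Alternatives were no centring, scaling, turned day 0 signs, the reference channel as baseline, other filters, the median over features, a block by letter, and left-out arrays.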

Additional observations from a re-analysis of the deposited data

Results flagged for a closer look

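A difference between the effects of late and early days, tested in the fit as days 5 to 7 minus days 1 to 3, singled out 7 genes of the set. It was -1.32 for Hnrnpf, -0.86 for Rbm46, -0.81 for Lsm8, -0.81 for Rbm10, -0.68 for Snrpb2, -0.64 for Lsm14b and 0.57 for Ddx47 (log2). The adjusted p values (limma) ran from 0.00553 for Hnrnpf to 0.0383 for Ddx47. With the arrays of each letter averaged over a period, a setting chosen after seeing the data, 0 of the 7 passed in limma, with adjusted p between 0.355 and 0.426. The share called, 7.87% of the set, lay beside 7.74% of all units. The C arrays of days 4 to 7 were lower than A and B by 0.98 in Hnrnpf, 0.84 in Rbm46, 0.70 in Lsm8, 0.66 in Snrpb2, 0.15 in Ddx47 and 0.11 in Rbm10, and 0.48 higher in Lsm14b. Without these C arrays the differences were -1.0 for Hnrnpf, -0.80 for Rbm10, -0.46 for Snrpb2 and -0.91 for Lsm14b, which kept their calls. They were -0.48 for Lsm8, -0.62 for Rbm46 and 0.61 for Ddx47, which lost theirs. The differences of Lsm14b and Ddx47 were larger without the C arrays, so a kept or lost call does not measure the part of those arrays.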

How the results depend on the processing

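Of 119 gene calls over the 9 comparisons, 119 kept their side of the threshold with the median over features, with at least 1 value on each day and under either replicate block, 117 without centring, 104 with arrays scaled, 95 once the C arrays of days 4 to 7 were dropped, and 92 of the 101 that could be set against the reference channel. With all day 0 signs turned, 32 of 112 stood, 75 were lost and 5 changed sign: Ddx17 at day 4 (-0.11) and day 5 (-0.01), Ddx27 at day 4 (0.04) and day 7 (0.03), and Snrpg at day 7 (0.30). With day 0 array C alone turned, 96 of 112 stood, and in fits of only the groups compared 64 of 108. Leaving out 1 array kept 716 of 996.

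The number of genes past the threshold (4, 8, 13, 16, 21, 19 and 20 for days 1 to 7, 11 over the course and 7 between periods) moved by more than 1.5 times in the cases below, each given with the percent of all units called in brackets. With all day 0 signs turned it was 0 (4.84) at day 1, 8 (12.8) at day 3, 9 (12.6) at day 5, 12 (16.7) at day 6 and 5 (11.6) at day 7. With day 0 array C turned it was 18 (22.7) at day 2 and 20 (28.2) at day 3. Scaled arrays gave 13 (30.6), 21 (34) and 22 (34.3) at days 1, 2 and 3. Dropping the C arrays of days 4 to 7 gave 9 (21.3), 19 (31.1) and 26 (37) at days 1, 2 and 3, and 20 (29.8) over the course. Against the reference channel it was 22 (25.8), 25 (32.4) and 29 (36.4) at days 2, 3 and 6. In fits of only the groups compared it was 9 (24.2), 20 (31.3), 25 (35.9), 6 (11.4), 7 (10.5), 10 (13.6) and 11 (15.1) for days 1 to 7. Genes with a value on every array gave 13 (24.5) at day 5 and 4 (8.41) between periods, with fewer genes tested (71). Array letters as a replicate block gave 14 (22.6) at day 2, 23 (29.9) at day 3 and 13 (14.5) between periods. As a block of 2 sets of letters (days 0 to 3 and 4 to 7) they gave 14 (25.8), 24 (35.6), 30 (41.6), 29 (39.7), 33 (41.8), 34 (44.7) and 37 (47.9) for days 1 to 7, 35 (46.7) over the course and 24 (31.2) between periods. Same-letter arrays did not deviate together between the groups compared, so the block was not read as pairing, but they did within each period, and with letter means of each period, chosen after seeing the data, 0 (0) passed between periods in limma (9 at an unadjusted p under 0.05). The percent of all units moved the same way as the count in each of these cases except genes with a value on every array. Leaving out 1 array gave 0 to 7 at day 1, 4 to 13 at day 2, 5 to 16 at day 3, 8 to 16 at day 4, 6 to 21 at day 5, 11 to 20 at day 6, 9 to 23 at day 7, 4 to 15 over the course and 3 to 13 between periods, with 3.1% to 29.1% of all units called. The F-test could not be run against the reference channel or pair by pair, and the contrast between periods holds no day 0 array, so those settings gave no value there. The cause of these moves was not tested.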
